A study of Marchantia polymorpha and Klebsormidium nitens with 56 samples.

Results

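In female BC3 gemmalings of the liverwort *Marchantia polymorpha*, 3 of 19642 genes (0.0153%) stood at 4 or more times the unheated control after 1 h at 37 °C and at less than 2 times the control after 5 h. The genes were Mapoly0040s0108.1, Mapoly0057s0020.1 and Mapoly0140s0019.1. All 3 are named because they are so few. They were chosen on mean CPM (reads per 1000000 reads of the library's column sum) of the BC3 libraries, with 0.5 CPM added to each mean. The BC3 values therefore describe the choice and carry no test. The libraries of the other wild types, Tak-1 and Tak-2, did not enter it. In either line 0 of the 3 members met both conditions, which 0.148% of all genes met in Tak-1 and 0.0560% in Tak-2. At such shares, 0 of 3 does not set the members apart from other genes.

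A heat response in plants is driven largely by heat shock factors, transcription factors that bind heat shock elements in promoters and switch on genes of chaperones. Chaperones that accumulate can bind the factors and damp their activity, so that transcription of many targets is known to peak early and then decline while the heat goes on. A transcript with a short life follows such a peak closely, whereas a stable transcript stays high after its gene has slowed down. The deposited table gives identifiers without gene names, and of its 19642 identifiers outside the male chromosome 0 matched the reference gene table used here (MpTak2_v7.1). No name, function, protein or promoter is therefore given for the members.

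RNA was sequenced from gemmalings, small plants grown from asexual buds called gemmae. The wild types were the male Tak-1 and the females Tak-2 and BC3, each without heat and after 1 h and 5 h at 37 °C, with 2 libraries in each of the 9 groups. All plants were 7 days old, were kept at 22 °C in constant light before the heat, and are labelled as wild type. The labels give no number of gemmalings per library, and in RNA of many cells fewer cells of a type and less RNA per cell cannot be told apart.

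Libraries held 15129192 to 21491656 reads. Reads on the 113 identifiers of the male chromosome (MapolyY) checked the sex labels. The 4 heated Tak-1 libraries held 434.3 to 799.6 such reads per 1000000 reads, and the 10 libraries of BC3 and of heated Tak-2 held 0.384 to 1.14. Among the unheated libraries, the one labelled Tak-1 replicate 1 held 417 per 1000000, but the one labelled Tak-1 replicate 2 held 1.34. The library labelled Tak-2 replicate 1 held 1029 per 1000000 and that labelled Tak-2 replicate 2 held 1.09. Thus 1 unheated library of each Tak line went against its sex label. Log2 changes of the members against the control in these lines are given with and without both. Ratios of the rule, numbers of genes meeting it and values of genes other than the members were not computed without both. The size of the change from 1 h to 5 h of heat rests on heated libraries, but its test in the full fit takes the spread from all 18 libraries, the unheated ones included. Over genes with enough reads, the spread within a pair of libraries against counting error (chi-square per degree of freedom) was 12.4 in unheated BC3. It was 8.20 in unheated Tak-1, 27.3 in unheated Tak-2 and 2.11 to 4.04 in the heated groups. Male-chromosome reads cannot tell BC3 from Tak-2, so they leave the labels within the females unchecked.

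**Figure D1:**
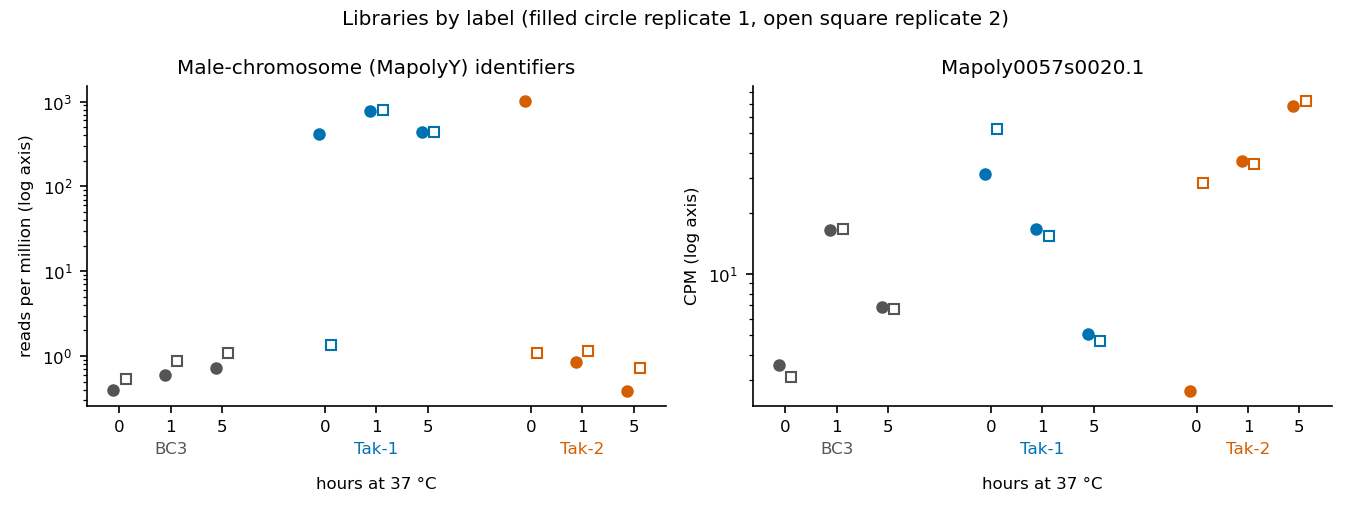
Reads per 1000000 reads on male-chromosome identifiers (left) and CPM of Mapoly0057s0020.1 (right), both on log axes, in each of the 18 libraries by label and hours of heat. The library labelled Tak-1 control replicate 2 lies with the female libraries at 1.34 reads per 1000000, and that labelled Tak-2 control replicate 1 lies with the male ones at 1029.

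In BC3, 205 genes stood at 4 or more times the control after 1 h, and 202 of them remained at 2 or more times the control after 5 h. The 3 members were 1.46% of the 205. Over the 205 genes the median ratio of 5 h to control was 6.64, and 112 genes were lower at 5 h than at 1 h. Ordered from the lowest ratio of 5 h to 1 h, Mapoly0140s0019.1 was number 2 of the 205, Mapoly0040s0108.1 number 9 and Mapoly0057s0020.1 number 11. The members were thus at the low end for the later time, as the rule asks.

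**Figure D2:**
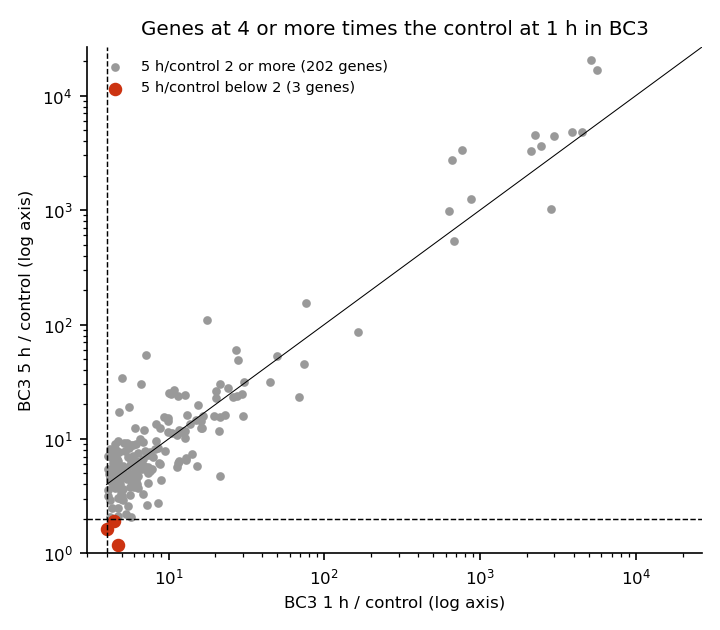
Ratio of 5 h to control against ratio of 1 h to control in BC3 for the 205 genes at 4 or more times the control after 1 h, both on log axes, with dashed lines at the ratios of 4 and 2 and a solid line where both ratios are equal. The 3 members lie under the lower dashed line, and all have 1 h ratios close to 4.

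The members lay close to the thresholds. Their ratios of 1 h to control were 4.04 for Mapoly0040s0108.1, 4.49 for Mapoly0057s0020.1 and 4.76 for Mapoly0140s0019.1. Their ratios of 5 h to control were 1.64, 1.92 and 1.17 in the same order. Just outside at 1 h were 2 genes with ratios of 3.71 and 3.65 that met the later condition (1.99 and 1.18). Just outside at 5 h were 2 genes with ratios of 2.08 and 2.09 that met the earlier one (4.18 and 5.73). With CPM scaled by TMM, which corrects for a few abundant transcripts taking a larger share of reads, 2 genes met the rule and 1 of them, Mapoly0140s0019.1, was a member.

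Mapoly0040s0108.1 was the member with the most reads at 1 h in BC3. In BC3 it stood at 13.4 and 6.78 CPM without heat, 43.4 and 41.1 CPM after 1 h, and 16.5 and 17.3 CPM after 5 h. The heated libraries at 1 h were above all others of the line, while the unheated pair lay further apart than either heated pair, and below both 5 h libraries. Against the higher unheated library, the ratio at 1 h was 3.16 and 2.997 for the respective heated libraries, and against the lower one it was 6.03 and 5.72. Without either one of the unheated libraries, or without replicate 1 of the 1 h libraries, the gene no longer met the rule.

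In Tak-1, Mapoly0040s0108.1 stood at 3.26 and 4.49 CPM without heat, 69.4 and 65.8 CPM after 1 h, and 23.5 and 22.3 CPM after 5 h. In Tak-2 the levels were 2.33 and 3.07 CPM, then 32.3 and 36.1 CPM, then 15.7 and 17.4 CPM. In both lines the 3 times did not overlap, with 1 h highest and the unheated plants lowest. The highest of the 4 unheated Tak libraries (4.49 CPM) was below the lowest heated one (15.7 CPM), whichever line the unheated libraries are labelled with.

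By edgeR's quasi-likelihood test, adjusted over 10832 genes, Mapoly0040s0108.1 rose at 1 h by a log2 of 4.32 ± 0.23 (SE) in Tak-1 (adjusted p = 2.13e-10) and of 3.95 ± 0.25 in Tak-2 (adjusted p = 1.51e-09). At 5 h it remained above the control, by 2.84 ± 0.23 in Tak-1 (adjusted p = 2.52e-08) and by 3.04 ± 0.25 in Tak-2 (adjusted p = 3.02e-08). Without the unheated libraries that go against their labels, the changes at 1 h were 4.596 and 3.77 and those at 5 h 3.09 and 2.85. Between 1 h and 5 h it fell by 1.49 ± 0.19 on the log2 scale in Tak-1 (edgeR adjusted p = 7.41e-06) and by 0.91 ± 0.19 in Tak-2 (adjusted p = 8.89e-04). The level at 5 h was 33.9% of that at 1 h in Tak-1, 48.3% in Tak-2 and 39.9% in BC3. By the ratios of the rule, the gene was thus at 15.6 and 10.9 times the control at 1 h in Tak-1 and Tak-2 and still at 5.36 and 5.33 times at 5 h, so the later condition failed in both.

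Ordered by mean CPM, the 9 groups ran from unheated Tak-2 (2.70 ± 0.53, SD, n = 2) and Tak-1 (3.87 ± 0.86) through unheated BC3 (10.1 ± 4.67) to the 5 h groups of Tak-2 (16.5 ± 1.25), BC3 (16.9 ± 0.58) and Tak-1 (22.9 ± 0.83). Above them came the 1 h groups of Tak-2 (34.2 ± 2.64), BC3 (42.2 ± 1.59) and Tak-1 (67.6 ± 2.54). Only the 5 h groups of Tak-2 and BC3 overlapped among neighbours in that order. The unheated level of Mapoly0040s0108.1 in BC3 was above all 4 unheated Tak libraries.

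**Figure D3:**
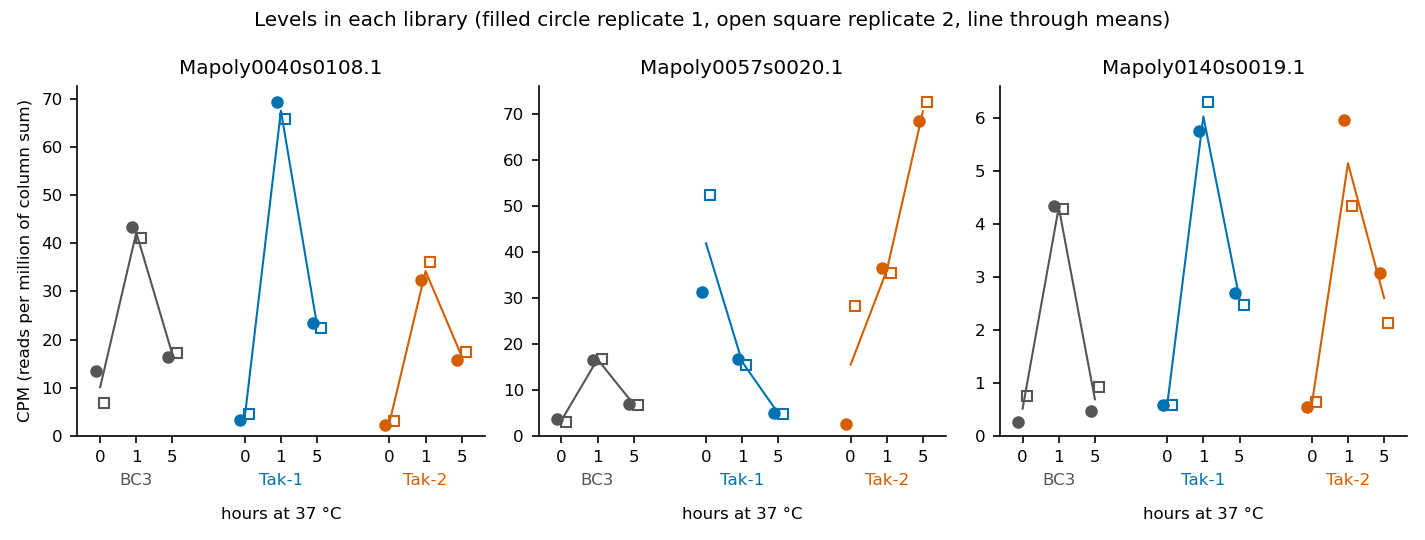
CPM of the 3 members in each library (filled circles replicate 1, open squares replicate 2, lines through the means of 2 libraries) against hours at 37 °C in BC3, Tak-1 and Tak-2, with the vertical axis from 0. Mapoly0040s0108.1 and Mapoly0140s0019.1 are highest at 1 h in all 3 lines, whereas Mapoly0057s0020.1 is highest at 5 h in Tak-2.

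Mapoly0140s0019.1 had the fewest reads of the members. In BC3 it held 4 and 14 reads without heat (0.262 and 0.759 CPM), 73 and 92 reads after 1 h (4.33 and 4.28 CPM) and 7 and 17 reads after 5 h (0.463 and 0.912 CPM). The level at 5 h overlapped that without heat, and both lay below 1 h. Since 0.5 CPM was added to each mean, the ratio of 4.76 at 1 h understated the ratio of plain means, which was 8.43.

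In Tak-1, Mapoly0140s0019.1 stood at 0.583 and 0.582 CPM without heat, 5.75 and 6.29 CPM after 1 h, and 2.70 and 2.47 CPM after 5 h. In Tak-2 the levels were 0.551 and 0.640 CPM, then 5.95 and 4.33 CPM, then 3.08 and 2.12 CPM. The 3 times did not overlap in either line, and the 4 unheated Tak libraries were alike at 9 or 10 reads each. The gene rose at 1 h by a log2 of 3.55 ± 0.35 in Tak-1 (edgeR adjusted p = 3.83e-07) and of 3.38 ± 0.36 in Tak-2 (adjusted p = 8.63e-07). At 5 h it remained higher than the control by 2.41 ± 0.37 in Tak-1 (adjusted p = 3.19e-05) and 2.53 ± 0.38 in Tak-2 (adjusted p = 2.03e-05). Without the unheated libraries that go against their labels, the changes at 1 h were 3.58 and 3.28 and those at 5 h 2.41 and 2.43, and all 4 passed.

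Between 1 h and 5 h Mapoly0140s0019.1 fell by 1.15 ± 0.29 on the log2 scale in Tak-1 (edgeR adjusted p = 0.00316) and by 0.85 ± 0.29 in Tak-2 (adjusted p = 0.0210). The level at 5 h was 42.9% of that at 1 h in Tak-1 and 50.5% in Tak-2, against 15.96% in BC3. The call in Tak-2 was lost with the Tak-2 libraries alone (log2 -0.845, edgeR adjusted p = 0.0508). It was also lost without replicate 1 of the 1 h libraries (log2 -0.61) and without replicate 2 of the 5 h libraries (log2 -0.60). The 1 h groups of the 3 lines were the highest (4.31 ± 0.033 CPM in BC3, 5.14 ± 1.15 in Tak-2 and 6.02 ± 0.39 in Tak-1), and the ranges of Tak-2 and BC3 overlapped, as did those of Tak-2 and Tak-1. The 5 h groups of Tak-1 (2.58 ± 0.16 CPM) and Tak-2 (2.60 ± 0.68) also overlapped, while BC3 at 5 h (0.687 ± 0.32) overlapped the unheated groups.

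Mapoly0057s0020.1 differed between lines. In BC3 it stood at 3.54 and 3.09 CPM without heat, 16.6 and 16.7 CPM after 1 h, and 6.87 and 6.76 CPM after 5 h, so the times did not overlap. The ratio of plain means at 5 h was 2.06, and the 0.5 CPM added to each mean brought it below 2, to 1.92. In heated Tak-1 the levels were 16.7 and 15.4 CPM after 1 h and 5.04 and 4.66 CPM after 5 h, close to those of BC3 at 1 h. In heated Tak-2 they were 36.5 and 35.4 CPM after 1 h and 68.5 and 72.5 CPM after 5 h, with the later time higher.

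The unheated Tak libraries did not agree on Mapoly0057s0020.1. Those labelled Tak-1 held 31.3 and 52.4 CPM, and those labelled Tak-2 held 2.63 and 28.3 CPM. The lowest of these 4 was the library labelled Tak-2 replicate 1, which carried male-chromosome reads, and the highest was the one labelled Tak-1 replicate 2, which did not. The change at 1 h was a log2 of -1.18 ± 0.52 in Tak-1, which did not pass (edgeR adjusted p = 0.0613), and 1.51 ± 0.53 in Tak-2, which passed (adjusted p = 0.0222). The call in Tak-2 was lost with DESeq2 (adjusted p = 0.0732), with the Tak-2 libraries alone (0.113) and without replicate 1 or 2 of its 1 h libraries (0.0682 and 0.0634). Its size was 4.06 without the unheated library labelled Tak-2 replicate 2. In Tak-1 the change passed with column sums (edgeR adjusted p = 0.0282), without the low-count filter (2.84e-04) and with the Tak-1 libraries alone (2.48e-04). With DESeq2 (adjusted p = 0.170), with its size factors in edgeR (0.0587) and with a replicate block (0.0656) it did not pass. The change in Tak-1 was -1.51 without the unheated library labelled Tak-1 replicate 1 and -0.74 without replicate 2. Without the unheated libraries that go against their labels, it was -0.73 in Tak-1 and 0.64 in Tak-2, and each control was then 1 library. At 5 h the changes were -2.84 ± 0.59 in Tak-1 (edgeR adjusted p = 4.63e-04) and 2.62 ± 0.53 in Tak-2 (adjusted p = 3.58e-04), or -2.41 and 1.74 without those libraries. The -0.73 and -2.41 rest on the unheated library labelled Tak-1 replicate 1 alone. For the nearby Mapoly0057s0018.1 that library held 1.92 CPM, against at most 0.0558 CPM in heated Tak-1. Whether it is a sound Tak-1 control for this gene was not tested. Without the unheated library labelled Tak-2 replicate 2 alone, the change in Tak-2 at 5 h was 5.17.

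Between 1 h and 5 h Mapoly0057s0020.1 fell by 1.66 ± 0.61 on the log2 scale in Tak-1 (edgeR adjusted p = 0.0313), and its change in Tak-2 was 1.11 ± 0.49 (adjusted p = 0.0667). The call in Tak-1 was lost without any 1 of the 4 heated Tak-1 libraries (edgeR adjusted p from 0.0724 to 0.137), while the change stayed between -1.72 and -1.59. The spread that the test used for this gene includes the unheated libraries, which lay far apart. With the heated libraries alone in the fit, the changes were -1.66 in Tak-1 (adjusted p = 1.29e-13) and 1.10 in Tak-2 (adjusted p = 1.88e-14), and both passed. The difference between the lines in this change was a log2 of 2.77 ± 0.78 (edgeR interaction test, adjusted p = 0.0315), or 2.76 with the heated libraries alone (adjusted p = 1.14e-15). This difference lost its call with DESeq2 (adjusted p = 0.0564) and with the Tak lines alone (edgeR adjusted p = 0.0859). It also did so when any 1 heated Tak library was left out of the full fit, and its size stayed between 2.69 and 2.83.

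At the same hours of heat, a comparison added after the values were seen, Mapoly0057s0020.1 was higher in Tak-2 than in Tak-1 at 5 h by a log2 of 3.93 ± 0.59 (edgeR adjusted p = 9.89e-05). At 1 h the difference was 1.16 ± 0.52 and did not pass (adjusted p = 0.151), but it passed with the unheated libraries that go against their labels left out (1.16, adjusted p = 1.10e-10). Mapoly0040s0108.1 was lower in Tak-2 than in Tak-1 at 1 h by 0.98 ± 0.18 (log2 -0.98, adjusted p = 0.00229), and at 5 h its difference of -0.41 ± 0.20 did not pass (adjusted p = 0.117), but passed with the heated libraries alone (-0.40, adjusted p = 4.99e-04). For Mapoly0140s0019.1 the differences were -0.22 ± 0.27 at 1 h and 0.07 ± 0.30 at 5 h (adjusted p = 0.639 and 0.878). Over all genes tested, 8.11% were higher and 7.90% lower in Tak-2 at 1 h, and 17.9% and 19.7% at 5 h.

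Read together, the 3 members passed the filter on low counts and each was tested in every comparison. At 1 h against control, 2 rose in Tak-1, where 29.9% of all genes tested rose, and 3 rose in Tak-2, where 29.4% did. The 3 in Tak-2 became 2 with DESeq2, with the Tak-2 libraries alone and without either of its 1 h libraries. At 5 h against control 2 were higher and 1 lower in Tak-1 (36.3% and 34.9% of all genes), and 3 were higher and 0 lower in Tak-2 (36.2% and 35.2%). From 1 h to 5 h, 3 of 3 fell in Tak-1 against 26.9% of all genes, and 2 of 3 in Tak-2 against 28.3%, with 0 of 3 higher in Tak-2 where 26.5% of all genes were. The 3 in Tak-1 became 2 without any 1 heated Tak-1 library. The 2 in Tak-2 became 1 with the Tak-2 libraries alone and without replicate 1 at 1 h or replicate 2 at 5 h. The median log2 of the members from 1 h to 5 h was -1.49 in Tak-1 and -0.85 in Tak-2, and that of all genes was close to 0.

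The 202 genes that stayed high in BC3 are set beside them. Of these, 202 rose at 1 h in Tak-1 and 201 in Tak-2, with median log2 changes of 2.97 and 3.24. Between 1 h and 5 h, 88 of them fell and 53 rose in Tak-1 (median -0.19), and 70 fell and 79 rose in Tak-2 (median -0.02). No test was made of the difference between them and the members.

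The test of a difference in response between the Tak lines passed for 1 of the 3 members. In the interaction tests of Tak-2 minus Tak-1, Mapoly0057s0020.1 was higher at 1 h (log2 2.69 ± 0.74, edgeR adjusted p = 0.0175) and at 5 h against control (5.46 ± 0.79, adjusted p = 1.05e-04), where 10.98% and 16.7% of all genes were higher. From 1 h to 5 h, where it was also higher as given above, 4.52% of all genes were. Without the unheated libraries that go against their labels, the differences against control were 1.37 and 4.16, and without the unheated library labelled Tak-2 replicate 2 alone they were 5.24 and 8.01. The difference at 1 h did not pass without the unheated library labelled Tak-1 replicate 2 (2.25, edgeR adjusted p = 0.0767), without either Tak-1 1 h library (0.0549 and 0.0664), without Tak-2 1 h replicate 2 (0.0503) or with the Tak lines alone (0.0541). For Mapoly0040s0108.1 the difference from 1 h to 5 h was 0.57 ± 0.27 and did not pass (adjusted p = 0.203), but it passed with the heated libraries alone (0.57, adjusted p = 4.50e-04). For Mapoly0140s0019.1 it was 0.30 ± 0.41 (adjusted p = 0.718).

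**Figure D4:**
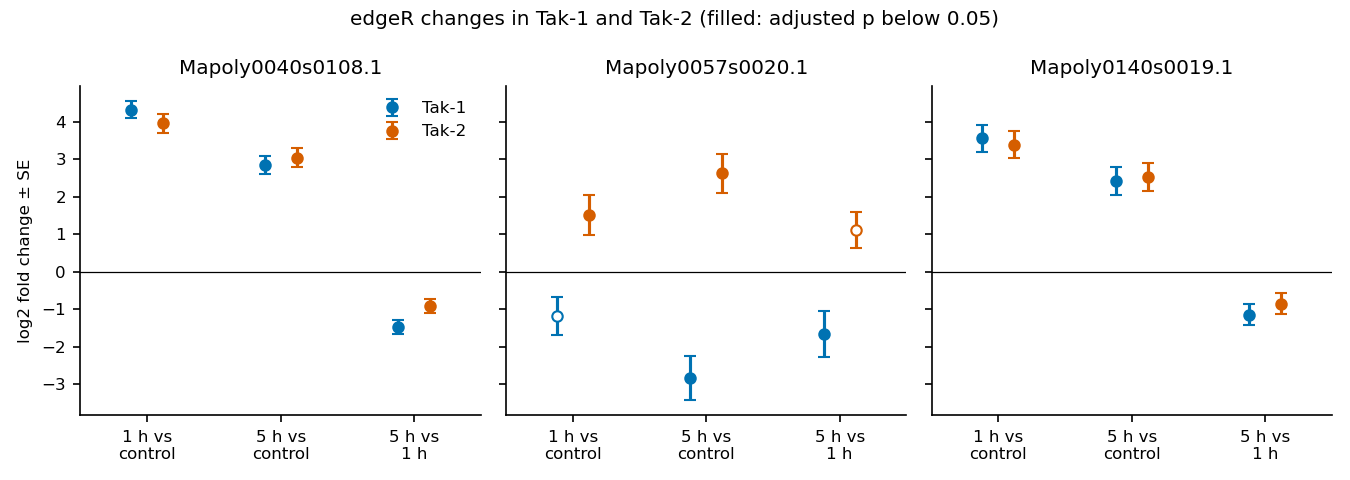
edgeR log2 fold changes ± SE of the 3 members in Tak-1 and Tak-2 for 1 h against control, 5 h against control and 5 h against 1 h, with filled points where the adjusted p is below 0.05. Mapoly0040s0108.1 and Mapoly0140s0019.1 lie on the same side of 0 in both lines, and Mapoly0057s0020.1 lies on opposite sides, with its values against control resting on unheated libraries of doubtful label.

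Both ratio conditions of the rule were met by 29 genes with the Tak-1 libraries (0.148%) and by 11 with the Tak-2 libraries (0.0560%), and 0 of the 3 members were among them. For Mapoly0040s0108.1 and Mapoly0140s0019.1 the later condition failed, since the ratios of 5 h to control were 5.36 and 2.85 in Tak-1 and 5.33 and 2.83 in Tak-2. For Mapoly0057s0020.1 the earlier one failed, with ratios of 1 h to control of 0.391 and 2.28.

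The identifiers place the members on 3 different scaffolds, as numbers 108 of scaffold 40, 20 of scaffold 57 and 19 of scaffold 140, so none neighboured another. Identifiers numbered up to 2 below and above them were looked at after the values had been seen, and not all are given. Numbered 1 above, Mapoly0140s0020.1 had means of 661 CPM without heat, 486 at 1 h and 339 at 5 h in BC3. In the same order its means were 873, 583 and 353 CPM in Tak-1 and 806, 566 and 430 CPM in Tak-2. Also numbered 1 above, Mapoly0040s0109.1 held at most 0.18 CPM and Mapoly0057s0021.1 held 0. Mapoly0057s0019.1, next to Mapoly0057s0020.1, stood at 0.359 ± 0.048 CPM without heat in BC3 and at 2129 ± 0.84 CPM after 1 h and 3114 ± 42.7 CPM after 5 h (SD, n = 2). In Tak-1 it held 1650 ± 6.89 and 1879 ± 87.5 CPM at these times, and in Tak-2 2661 ± 1.24 and 4633 ± 34.3 CPM. Mapoly0057s0019.1 rose between 1 h and 5 h by a log2 of 0.26 in Tak-1 (edgeR adjusted p = 0.0151) and of 0.94 in Tak-2 (adjusted p = 2.23e-07). In Tak-1 the 2 neighbours thus went opposite ways between 1 h and 5 h. Their means did so in BC3 too, where the rule chose Mapoly0057s0020.1, and in Tak-2 both means were higher at 5 h. The sources used here give neither strand nor the overlap of gene models, so reads from overlapping transcripts cannot be told apart.

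Mapoly0057s0018.1, numbered 2 below Mapoly0057s0020.1 and picked for its values, was at 0 in 5 of the 6 BC3 libraries and 3 of the 4 heated Tak-1 libraries. In heated Tak-2 it held 2.52 and 3.67 CPM after 1 h and 6.59 and 7.23 CPM after 5 h. The unheated libraries labelled Tak-1 held 1.92 and 2.74 CPM, and those labelled Tak-2 held 0 and 2.30 CPM. The highest and the lowest of these 4 libraries were the same for Mapoly0057s0018.1 and Mapoly0057s0020.1. The unheated library labelled Tak-1 replicate 1, which carried male-chromosome reads, also held more Mapoly0057s0018.1 (1.92 CPM) than any heated Tak-1 library (at most 0.0558 CPM). Mapoly0040s0107.1, next to Mapoly0040s0108.1, went from 2.24 ± 0.26 CPM without heat to 7.91 ± 0.28 at 1 h and 12.3 ± 1.44 at 5 h in BC3. It rose from 1 h to 5 h in Tak-1 (log2 0.53, edgeR adjusted p = 0.0357) and in Tak-2 (log2 0.70, adjusted p = 0.00951), where Mapoly0040s0108.1 fell. Mapoly0140s0018.1, numbered 1 below Mapoly0140s0019.1, was low throughout, at 0.757 ± 0.23 CPM without heat, 1.15 ± 0.026 at 1 h and 1.18 ± 0.078 at 5 h in BC3. At 1 h Mapoly0140s0018.1 rose in Tak-1 by a log2 of 1.16 (edgeR adjusted p = 0.0136), and in Tak-2 its change was -0.66 and did not pass (adjusted p = 0.197).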

How the data were processed

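The authors deposited counts of reads per gene identifier as whole numbers without normalization, in a table of 19755 named identifiers and 18 libraries. STAR is the aligner per the submitters' processing notes. The sources used here state neither its version nor the build, counting program or strandedness. An unnamed line that equalled the column sums was left out. Columns were matched to samples by the labels and the sample sheet. CPM for levels and for the rule used column sums without the 113 MapolyY identifiers. Of 16656 loci, 2986 had several identifiers, but no member did.

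Counts of the whole table were tested with edgeR 4.0.16 under R 4.3.3 (quasi-likelihood F test, TMM scaling, filterByExpr, 9 group means), and p-values were adjusted by Benjamini-Hochberg over the 10832 genes that passed the filter, with a threshold of 0.05. MapolyY identifiers that passed the filter stayed in this fit. The SE is the log2 change divided by the square root of F. DESeq2 1.42.0, other scalings, no filter, fewer libraries and a replicate block were alternatives. The scripts were tested on simulated data. The labels do not say whether replicates came from separate cultures, so the spread that the p-values rest on may be technical. It is the spread between the 2 libraries of a group, pooled over the 9 groups. The unheated Tak pairs, each with 1 library that goes against its sex label, are part of it. Members were to be named with at least 5 CPM in a group of the comparison. Mapoly0140s0019.1 fell short in BC3 (highest mean 4.31 CPM) and in the Tak comparisons that hold no 1 h group (at most 2.60 CPM). All 3 are given in every comparison because they are few. Members and lists were chosen with earlier results of these data known. The first experiment and the algal libraries use other identifiers and were not analysed here, nor were the chromatin samples.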

Additional observations from a re-analysis of the deposited data

Results flagged for a closer look

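For Mapoly0057s0020.1 the response to heat differed between Tak-2 and Tak-1 by the interaction test at 1 h against control (log2 2.69), at 5 h against control (log2 5.46) and from 1 h to 5 h (log2 2.77). The first and second of these rest on unheated libraries of which 1 in each line goes against its sex label, and the third takes its value, though not the spread in its test, from heated libraries alone. The part of those libraries in the first and second was not tested beyond leaving them out. All 3 differences kept their sign in every alternative run, but those at 1 h against control and from 1 h to 5 h lost the call in some of them.

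Summed reads on male-chromosome identifiers, used only to check the labels, stood at 1029 per 1000000 reads in the unheated library labelled Tak-2 (female) replicate 1, against 0.394 and 0.542 per 1000000 in the unheated BC3 libraries. How they came into that library was not tested.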

How the results depend on the processing

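The number of genes meeting the rule in BC3 depended on its settings. It was 13 with 0.1 CPM added to each mean and 1 with 2 CPM, 12 with a ratio of 3 at 1 h and 0 with a ratio of 6, and 1 with a ratio of 1.5 at 5 h. Leaving out 1 BC3 library gave 2 to 6 genes. Of the 5 genes found without unheated BC3 replicate 1, 0 were members, and without 1 h replicate 2 all 3 members were among the 6. In Tak-1 the number was 50 and 11 with 0.1 and 2 CPM added and 23 to 31 without 1 library, and in Tak-2 it was 26 and 5 and 6 to 17. The 17 came without the unheated library labelled Tak-2 replicate 2, and the 6 without Tak-2 1 h replicate 2.

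Over 414 alternative values for single members, 363 kept direction and side of the threshold, 26 lost the call, 17 gained it and 8 changed sign. The 8 were all of differences that had not passed. For Tak-2 minus Tak-1 they were 0.033 at 1 h for Mapoly0140s0019.1 without Tak-2 1 h replicate 2 (lowest without 1 library -0.41), and at 5 h -0.065 (highest 0.43) and -0.24 for Mapoly0040s0108.1 without Tak-1 control replicate 2 and without both doubtful controls. For Mapoly0140s0019.1 they were -0.020 at 5 h with column sums, -0.17 at 5 h (highest 0.38) and -0.0013 from 1 h to 5 h (highest 0.55) without Tak-2 5 h replicate 1, and -0.0074 and -0.23 (highest 0.32) for the lines at 5 h without Tak-1 5 h replicate 2 or Tak-2 5 h replicate 1. The cause was not tested.

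Counts of members called changed as follows. In Tak-2 at 1 h, 2 in place of 3 were higher with DESeq2, with Tak-2 alone and without either 1 h library. From 1 h to 5 h in Tak-1, 2 in place of 3 were lower without any 1 heated library. In Tak-1 at 1 h, 1 was lower with column sums, without the low-count filter, with Tak-1 alone and without both doubtful controls, and 0 to 1 without 1 library. From 1 h to 5 h in Tak-2, 1 was higher without the filter, without both doubtful controls and with heated libraries alone. With Tak-2 alone 1 was lower, and without 1 library 1 to 2. For Tak-2 minus Tak-1 at 1 h, 0 were higher with the Tak lines alone, and 0 to 1 without 1 library. From 1 h to 5 h, 0 were higher with DESeq2, with the Tak lines alone and without any 1 library, and 2 without both doubtful controls and with heated libraries alone. For Tak-2 against Tak-1, 1 was higher at 1 h and 1 lower at 5 h without the filter, without both doubtful controls and with heated libraries alone, and 1 lower at 5 h also with the Tak lines alone.

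The deviations of same-numbered libraries correlated between -0.031 and 0.016 across the groups of a line. Such values do not settle whether these libraries shared a culture or batch, which the labels do not give. The replicate block moved no count of members called (3 lower in Tak-1 and 2 in Tak-2 from 1 h to 5 h). Column sums in place of TMM shifted the median log2 of all genes by up to -0.42 (Tak-2, 5 h against control). Where a group was left with 1 library, it was assumed to vary like the others. Alternatives with both doubtful controls out or heated libraries alone, and the comparison of the Tak lines at equal hours, were chosen after seeing the data. With 4 to 17 reads in the unheated and 5 h libraries of BC3, counting error limits Mapoly0140s0019.1.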

Other observations

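The genes that met both conditions in Tak-1 and in Tak-2 overlapped in 4, which were 13.8% of the 29 and 36.4% of the 11, and they are named here after their values were seen. Of all 19642 genes, 0.148% met both conditions in Tak-1 and 0.0560% in Tak-2. The ratios in each Tak line use an unheated pair with 1 library that goes against its sex label. Whether the 4 hold without those libraries was not tested. Mapoly0194s0010.1 had ratios of 1 h and 5 h to control of 5.17 and 1.57 in Tak-1, 4.01 and 1.37 in Tak-2 and 3.65 and 1.18 in BC3, where it missed the rule narrowly at 1 h. Mapoly0092s0015.1 had 4.70 and 1.65 in Tak-1, 5.10 and 1.56 in Tak-2 and 4.72 and 2.51 in BC3, where it missed at 5 h. Mapoly0025s0042.1 had 9.12 and 1.55, 5.23 and 1.88, and 4.202 and 2.90 in the same order of lines. Mapoly0088s0052.1 had 5.26 and 1.12 in Tak-1 and 4.05 and 0.567 in Tak-2, but 0.713 and 0.276 in BC3.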
